A study of Rattus norvegicus with 8 samples.

Results

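The genes described here are 10 of the 18166 genes named on the arrays: the cyclins Ccna2, Ccnb1 and Ccnb2, the kinase Cdk1 that they bind, and its regulators Cdc25b, Cdc25c, Wee1, Cdkn3, Cdc20 and Ube2c. They were chosen by name, as the cyclins of G2 and mitosis with their kinase and the factors that switch it on and off. Earlier results of these data were known when they were chosen, so shares over all genes given beside member counts are descriptions. Each is represented by its single-symbol probe set, the brightest by mean level on the 8 arrays where it has several. Levels are RMA values on a log2 scale, so a difference of 1 is a doubling. Genes with a mean level of at least 5 were tested (8690 genes), which took in 9 of the 10. Cdc25c had a mean of 4.998 and fell just under that minimum, while Cdc25b, with a mean of 5.28, was the lowest member to pass it.

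Liver of male Sprague-Dawley rats was profiled on 8 Affymetrix arrays, with no combination of diet, treatment and time measured on more than 1. Chronically ethanol-fed rats were set against pair-fed rats on the carbohydrate control diet, and AM21-treated rats against untreated ones. AM21 is an antisense oligonucleotide with locked nucleic acid bases against the microRNA miR-21. Rats got 7.5 mg/kg by intraperitoneal injection 72 h ahead of partial hepatectomy (PHx) and a repeat dose once the operation was over, so the 0 h liver had had 1 injection. Tissue was taken 24 h after PHx and at the operation (0 h), when 70% of the liver was removed. RNA of 3 rats (AM21) or 4 rats (untreated) was pooled for each array, and the same animals gave both times, which makes 4 matched pools: ethanol-fed AM21, ethanol-fed untreated, pair-fed AM21 and pair-fed untreated. The AM21 and the untreated animals carry separate ranges of identifiers, so treatment and cohort cannot be told apart. Neither sham-operated rats nor rats given a control oligonucleotide were analysed here, and effects of surgery or of elapsed time cannot be told apart from those of lost liver mass.

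Cyclins A and B are made late in the cell cycle and switch on CDK1, the kinase that drives a cell through G2 into mitosis. WEE1 holds CDK1 off by phosphorylating it, and phosphatases of the CDC25 family remove that block. CDKN3 is a phosphatase of cyclin-dependent kinases. The switch is thrown back when CDC20 directs the anaphase-promoting complex to the cyclins and UBE2C, a ubiquitin-conjugating enzyme, starts the chain that marks them for destruction. Adult hepatocytes rarely divide, but after PHx they enter a wave of DNA synthesis followed by mitosis. The livers expressed the hepatocyte markers at averages between 11.3 and 11.4 at 24 h, against 11.4 to 11.5 at 0 h, where the medians of the 8 arrays lay between 4.11 and 4.23.

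Genes of this switch are known to carry 2 kinds of short element near their start sites: CCAAT boxes, bound by NF-Y, and a cell cycle homology element, bound by the MuvB complex. Windows from 250 bases before to 50 after the start, from RefSeq on GRCr8, matched 7 of the 10 genes. Ccna2, Wee1 and Ube2c had none. The stretches below are upstream of the outermost annotated start and are shown because they place these elements in a mitotic cyclin, its kinase, the activator of its destruction and the 1 tested member whose level did not pass the test after PHx. Capitals mark CCAAT on either strand (ATTGG is the same box read on the other strand) and the letters TTTGAA, a variant TTCGAA with other letters in the middle, or the further variant TTTAAA. The Ccnb1 stretch lies at chr2:33655226-33655375 (minus strand), that of Cdk1 at chr20:19265143-19265251 (plus strand), that of Cdc20 at chr5:137255800-137255949 (minus strand) and that of Cdc25b at chr3:138860023-138860147 (plus strand).
Ccnb1: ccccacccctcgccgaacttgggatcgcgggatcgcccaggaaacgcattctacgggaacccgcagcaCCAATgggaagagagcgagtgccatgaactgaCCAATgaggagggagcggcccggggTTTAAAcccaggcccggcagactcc
Cdk1: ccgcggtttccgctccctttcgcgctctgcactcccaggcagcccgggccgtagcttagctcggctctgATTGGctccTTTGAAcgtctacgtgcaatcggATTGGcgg
Cdc20: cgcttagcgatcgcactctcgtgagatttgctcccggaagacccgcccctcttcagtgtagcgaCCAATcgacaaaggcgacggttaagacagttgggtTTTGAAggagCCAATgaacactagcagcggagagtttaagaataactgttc
Cdc25b: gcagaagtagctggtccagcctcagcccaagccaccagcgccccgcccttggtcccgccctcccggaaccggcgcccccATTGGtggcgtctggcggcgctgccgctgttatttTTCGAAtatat

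All 7 genes with a window had at least 1 CCAAT, against 37.7% of the 27457 genes with a window. Of the 7, all but Cdc25b had 2 or more, against 11.5% of all genes. Ccnb1 had 2, with first bases at -82 and -50 from the start, which is 32 bases apart. In Cdk1, 2 of the 3 boxes, at -81 and -49, were also 32 bases apart, and the 3 boxes of Ccnb2 followed each other at 33 and 33 bases. Spacings in Cdc20, Cdkn3 and Cdc25c ran from 17 to 58 bases. TTTGAA, searched on both strands, was present in Cdk1, Cdc20, Ccnb2, Cdkn3 and Cdc25c (18.1% of all genes). Ccnb1 had TTTAAA at -25 (13.5% of all genes) and Cdc25b had TTCGAA at -36 (1.77% of all genes). A CCAAT pair or more together with any of these 3 words was found in 6 of the 7 genes and in 3.3% of all genes. These are matches of letters in a fixed window, and binding was not measured.

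The first comparison asked how the switch genes changed within a day of PHx. The kinase and its cyclins rose, and with them the factors that end their activity: 8 of the 9 tested members were higher at 24 h, against 15.3% of all 8690 tested genes called higher at an adjusted p under 0.05 (28.1% were called in either direction). Ccna2, Ccnb1 and Cdk1 averaged 4.59, 4.68 and 4.50 at 0 h, under the minimum of 5, and were tested only through their 24 h levels, so the count of members that passed the minimum is a description. With no minimum on the level these 8 genes and Cdc25c passed, with adjusted p-values from 0.00188 to 0.0214. The median difference of the 9 was 2.52 on the log2 scale, beside 0.01 over all tested genes. The 8 members were also those whose 4 arrays at 24 h all lay above the 4 at 0 h, a pattern held by 17.4% of tested genes; 0 members had the opposite pattern, held by 13.7%. Differences are given as 24 h minus 0 h ± SE from limma, with the pool as a fixed block, over 4 pools, and adjusted p-values are Benjamini-Hochberg values over the 8690 genes.

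Ccnb1 encodes cyclin B1, the main partner of CDK1 in mitosis. Its level at 24 h was 7.98 in the ethanol-fed AM21 pool, 7.69 in the ethanol-fed untreated, 9.27 in the pair-fed AM21 and 8.10 in the pair-fed untreated pool, against 5.26, 5.70, 3.73 and 4.04 at 0 h in the same order of pools. No array at 24 h overlapped one at 0 h, and the widest gap was in the pair-fed AM21 pool. The difference was 3.58 ± 0.53 (11.9-fold, adjusted p = 0.00489). Within pools the fold ran from 3.98 in the ethanol-fed untreated pool to 46.4 in the pair-fed AM21 pool. The pair-fed 0 h values, 3.73 and 4.04, lay below the medians of those arrays, 4.17 and 4.23, and may be background. The sizes of the larger fold and of the fitted rise are therefore uncertain.

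Cdk1 followed Ccnb1 closely. It stood at 7.83, 7.69, 8.87 and 8.03 at 24 h, against 4.91, 5.40, 3.72 and 3.98 at 0 h, in that order of pools. Its rise of 3.60 ± 0.43 (12.1-fold, adjusted p = 0.0025) was the largest of the 9 members tested, and all 4 pools showed it. The pair-fed 0 h values, 3.72 and 3.98, lay below the medians of those arrays, 4.17 and 4.23, and may be background. The size of the rise and its rank are therefore uncertain. Ccnb1 and Cdk1 had a correlation of 0.997 over the 8 arrays, the highest of any pair of members; arrays of both times are in it, so the shift with PHx is shared by the points.

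Ccna2, cyclin A2, acts from S phase into early mitosis. It was measured at 7.25, 6.88, 8.15 and 7.27 at 24 h, against 4.53, 5.54, 3.97 and 4.31 at 0 h. The times did not overlap, and the ethanol-fed untreated pool had both the highest 0 h and the lowest 24 h value. Its difference was 2.80 ± 0.40 (6.97-fold, adjusted p = 0.00435). The pair-fed AM21 value at 0 h, 3.97, lay below that array's median of 4.17 and may be background.

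Ccnb2, the second B-type cyclin, is read by a pair of single-symbol probe sets that disagree in size. The brighter one gave 7.55, 7.75, 8.44 and 7.99 at 24 h, against 7.11, 6.93, 6.79 and 6.88 at 0 h, and a difference of 1.01 ± 0.19 (2.01-fold, adjusted p = 0.0104). The dimmer one gave 6.33, 6.17, 7.80 and 6.71 at 24 h, against 4.88, 4.90, 4.32 and 3.84 at 0 h, and 2.27 ± 0.37 (adjusted p = 0.0067). It was under 5 on every 0 h array and was tested only through its 24 h levels. Both probe sets placed every 24 h array above every 0 h array. The size of the Ccnb2 rise is therefore uncertain, and its direction is the same on both. Where Ccnb2 is counted among the members, the brighter probe set is meant.

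**Figure D1:**
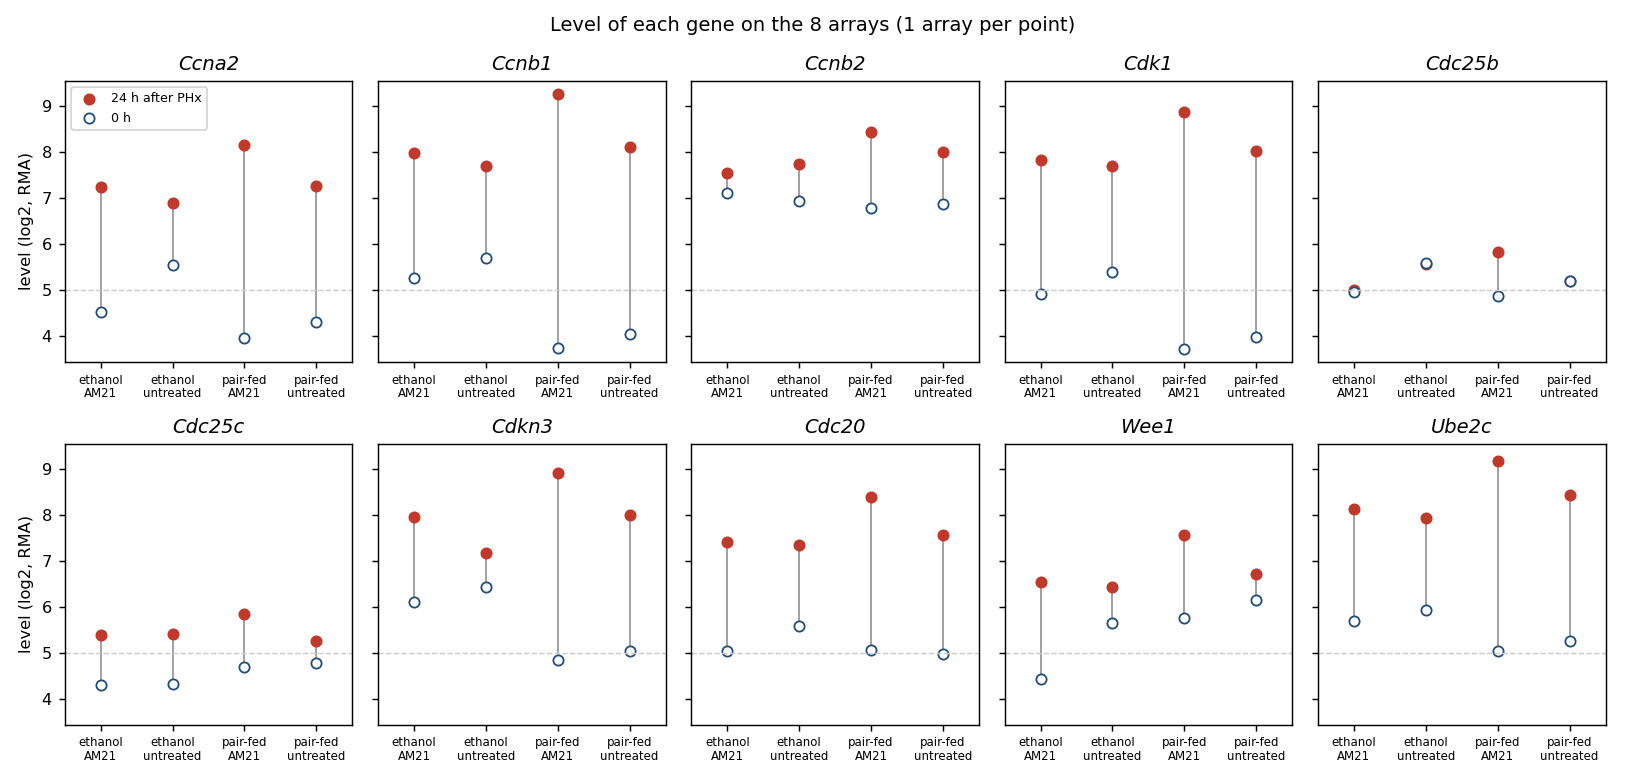
Level (log2, RMA) of each of the 10 genes on the 8 arrays, with 24 h after PHx as filled and 0 h as open circles, joined within a pool; the dashed line is the minimum mean level of 5. In 9 of the 10 genes, all but Cdc25b, every filled point lies above every open one, and in Cdc25b the points of 3 pools nearly coincide.

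Of the tested regulators of CDK phosphorylation, Wee1 and Cdkn3 rose and Cdc25b did not pass the test. Wee1, the inhibitory kinase, was measured at 6.55, 6.44, 7.56 and 6.71 at 24 h, against 4.44, 5.64, 5.77 and 6.16 at 0 h. Every pool was higher at 24 h and the times did not overlap, but the pools differed, with changes of 2.11 and 1.80 in the ethanol-fed and pair-fed AM21 pools beside 0.79 and 0.55 in the ethanol-fed and pair-fed untreated pools. The difference of 1.31 ± 0.27 (2.48-fold) passed with an adjusted p of 0.0135. Without the pair-fed AM21 pool it was 1.15, with an adjusted p of 0.0568.

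Cdc25b, a CDK-activating phosphatase, was at 5.00, 5.58, 5.83 and 5.19 at 24 h, against 4.97, 5.58, 4.88 and 5.21 at 0 h. Only the pair-fed AM21 pool moved by more than 0.04, and there the change was 0.95. The fitted difference was 0.24 ± 0.18 with an adjusted p of 0.345, so Cdc25b was the 1 tested member not called. Cdc25c, its paralog, lay at 5.39, 5.42, 5.85 and 5.25 at 24 h, against 4.29, 4.33, 4.68 and 4.77 at 0 h. These groups do not overlap either. Cdc25c had no test in the main fit; with no minimum on the level its difference was 0.96 ± 0.14 with an adjusted p of 0.00718. Both Cdc25 genes are among the dimmest members, and RMA gives no detection call, so a low value is not shown to be above background.

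Cdkn3 stood at 7.95, 7.17, 8.92 and 8.001 at 24 h, against 6.11, 6.43, 4.83 and 5.04 at 0 h. The times did not overlap, although the ethanol-fed untreated pool changed by 0.74 and the pair-fed AM21 pool by 4.08. Its rise was 2.41 ± 0.49 (5.30-fold, adjusted p = 0.0139), and without the pair-fed untreated pool it was 2.22 with an adjusted p of 0.0628.

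The genes that end CDK1 activity rose on the same arrays. Cdc20 was at 7.40, 7.36, 8.39 and 7.55 at 24 h, against 5.03, 5.58, 5.05 and 4.97 at 0 h. Its difference of 2.52 ± 0.23 (5.72-fold, adjusted p = 0.00162) had the smallest adjusted p of the 9 members. Ube2c was at 8.12, 7.93, 9.17 and 8.43 at 24 h, against 5.69, 5.93, 5.04 and 5.26 at 0 h. It rose by 2.93 ± 0.32 (7.63-fold, adjusted p = 0.0021), and in neither gene did the times overlap.

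**Figure D2:**
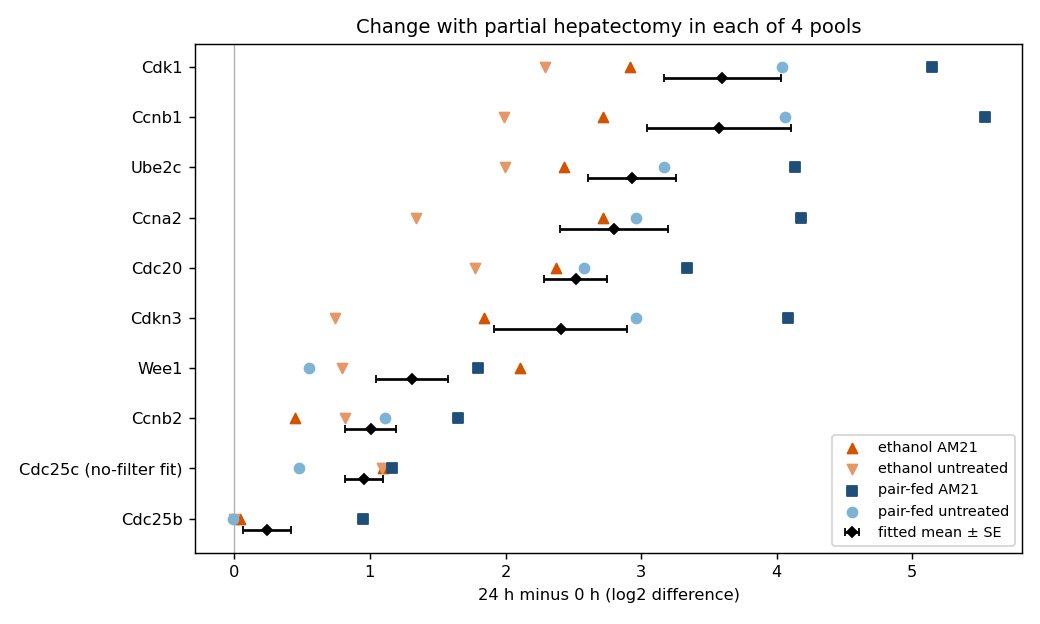
Change from PHx (24 h minus 0 h, log2) of each gene in the 4 pools, with the fitted mean ± SE in black; Cdc25c is from the fit with no level minimum. Cdk1 and Ccnb1 lead with means of 3.60 and 3.58, and the pair-fed AM21 pool has the largest change in 9 of the 10 genes, all but Wee1.

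The rest of the pathway was read from lists of named genes, with the share called higher in all tested genes at 15.3% and lower at 12.8%. Some list genes lay under 5 on every 0 h array and were tested only through their 24 h levels. Among those named below these are Ccne2, Ccnf, Gtse1, Bora, Pkmyt1, Bub1, Ttk, Foxm1 and S100a8. Ccne1, Cenpf and S100a9 lay under 5 on some 0 h arrays and no higher than 5.18 on any. The counts of tested list genes are therefore descriptions. Among partners of CDK1 and CDK2, 6 of 9 tested genes rose and 0 fell, with a median of 1.04. They include the cyclins of the G1 to S transition, Ccne2 (2.45 ± 0.26, adjusted p = 0.00194) and Ccne1 (2.01 ± 0.19, adjusted p = 0.00166), and Ccnf (1.95 ± 0.19, adjusted p = 0.00172). The small CDK-binding subunit Cks2 rose by 1.56 ± 0.13 (adjusted p = 0.00148), while its paralog Cks1b had 0.51 ± 0.17 with an adjusted p of 0.0663. In the network that activates CDK1, 8 of 13 rose and 0 fell, with a median of 1.39. Plk1, a kinase that promotes CDK1 activation, rose by 2.86 ± 0.28 (adjusted p = 0.00175), Gtse1 by 2.04 ± 0.25 and Bora, which helps Aurora A activate PLK1, by 1.91 ± 0.18. Aurka itself rose by 1.87 ± 0.23 (adjusted p = 0.0028).

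A brake on CDK1 rose in the same list. Pkmyt1, a membrane-bound kinase related in action to WEE1, rose by 1.49 ± 0.24 (adjusted p = 0.00623), beside the activating phosphatase Cdc25a with 0.86 ± 0.15 (adjusted p = 0.00906). Cdkn1a, which encodes the inhibitor p21, had a difference of 1.39 ± 0.52 with an adjusted p of 0.0937 and is taken up with diet below.

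In the anaphase-promoting complex and its regulators, 12 of 22 rose and 0 fell, with a median of 0.39. The 3 largest were the checkpoint genes Bub1 (3.02 ± 0.40, adjusted p = 0.00352), Ttk (2.92 ± 0.39, adjusted p = 0.00364) and Mad2l1 (2.51 ± 0.29, adjusted p = 0.00228), whose products hold CDC20 back until chromosomes are attached. Fzr1, the alternative activator of the complex in late mitosis and G1, had 0.17 ± 0.09 and an adjusted p of 0.209. Among transcription factors of G2/M genes, 7 of 16 rose and 1 fell, with a median of 0.26. Foxm1, an activator of the cyclin B genes, rose by 2.03 ± 0.23 (adjusted p = 0.00233), Rbl1 by 1.95 ± 0.12 and E2f8 by 1.63 ± 0.12. The one that fell was Rbl2 (-0.45 ± 0.12, adjusted p = 0.0344), which encodes the p130 subunit of a repressor complex in resting cells.

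G1 cyclins and their kinases gave 3 rises among 5 tested genes, with a median of 0.51: the CDK4 inhibitor Cdkn2c (2.03 ± 0.25), Ccnd1 (0.67 ± 0.12, adjusted p = 0.00818) and Cdk4 (0.51 ± 0.10, adjusted p = 0.011). All 8 tested proliferation markers rose, with a median of 2.94, led by Top2a (3.91 ± 0.46), Mki67 (3.51 ± 0.41, adjusted p = 0.00242) and Rrm2 (3.496 ± 0.51). The median of the 9 tested switch genes, 2.52, lay below that of the proliferation markers and above those of the other lists; no list was tested as a list.

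**Figure D3:**
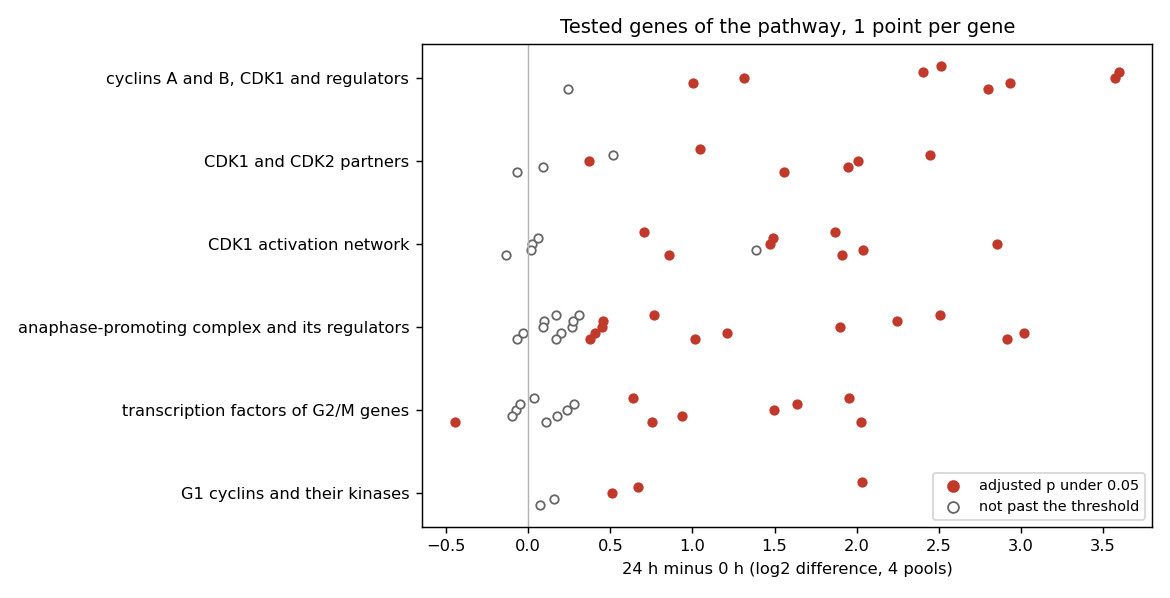
Change with PHx (24 h minus 0 h, log2) of each tested gene in the 10-gene switch (top row) and in 5 lists of its pathway, 1 point per gene, filled where the adjusted p was under 0.05. In the switch 8 of 9 points are filled, and 1 filled point, Rbl2, lies below 0.

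These are whole-tissue values, in which more cells of a type and more RNA per cell cannot be told apart. Some markers of cells other than hepatocytes also changed on these arrays. The neutrophil and monocyte list averaged 4.87 to 5.62 at 24 h, against 4.42 to 4.75 at 0 h, and 5 of its 10 genes had mean levels under 5. Of its 5 tested genes 2 rose, S100a8 by 3.09 ± 0.37 and S100a9 by 2.01 ± 0.32, while Ly6c, Lyz2 and Ncf1 did not pass. S100a8 lay under 5 on every 0 h array and was tested only through its 24 h levels. The Kupffer cell and macrophage list averaged 7.21 to 7.92 at 24 h, against 7.38 to 7.90 at 0 h; Marco rose by 1.06 ± 0.10, and Clec4f, Adgre1 and Csf1r fell by 0.66, 0.61 and 0.43. Of the T, B and NK cell markers 11 of 13 had mean levels under 5, and their list averaged 3.93 to 3.97 at 24 h, against 4.24 to 4.27 at 0 h. The sinusoidal endothelial list averaged 6.31 to 6.76 at 24 h, against 6.64 to 7.05 at 0 h, and 3 of its 6 tested genes fell, Ehd3 by 0.73, Oit3 by 0.73 and Clec4g by 0.60. Of the 8 tested stellate cell and fibroblast markers, Timp1 and Pdgfrb rose by 2.61 and 0.53, and Lrat, Reln and Col3a1 fell by 0.96, 0.57 and 0.49; that list averaged 5.72 to 5.99 at 24 h, against 5.59 to 5.95 at 0 h. In the cholangiocyte and erythroid lists 0 of 2 and 0 of 1 tested genes passed. The part of these cells in the rise of the switch genes was not tested.

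The second comparison asked whether ethanol feeding changed the switch. In the main fit several of its transcripts were called higher in ethanol-fed livers before the operation. Several were called with a smaller rise after it. With no minimum on the level 0 members passed in either comparison. At 0 h, 3 of the 9 tested members were called higher in ethanol-fed livers, against 0.598% of all tested genes. Ccnb1 and Cdk1 averaged 4.68 and 4.50 at 0 h, under the minimum of 5, and were tested because their 24 h levels brought the mean above it; with no minimum their 0 h differences had adjusted p-values of 0.127 and 0.145. Ccnb1 was 5.26 and 5.70 in ethanol-fed livers (AM21, then untreated), against 3.73 and 4.04 in pair-fed livers, a difference of 1.59 ± 0.21 (adjusted p = 0.0362). Cdk1 was 4.91 and 5.40 in ethanol-fed livers, against 3.72 and 3.98 in pair-fed livers (1.30 ± 0.19, adjusted p = 0.0414). Cdkn3 was 6.11 and 6.43 in ethanol-fed livers, against 4.83 and 5.04 in pair-fed livers (1.34 ± 0.12, adjusted p = 0.0175). In all 3 genes the diets did not overlap, and the ethanol-fed minus pair-fed difference was alike in the AM21 and the untreated pair, at 1.53 and 1.66 for Ccnb1.

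Ccna2 and Ube2c were also higher on both ethanol-fed arrays at 0 h, with 0.90 ± 0.20 and 0.66 ± 0.16, but did not pass (adjusted p = 0.1 and 0.115). With Ccnb2, 6 of 9 members had both ethanol-fed arrays above both pair-fed arrays at 0 h, against 26.6% of tested genes. Wee1 lay the other way: it was 4.44 and 5.64 in ethanol-fed livers, against 5.77 and 6.16 in pair-fed livers, a difference of -0.92 ± 0.24 with an adjusted p of 0.139. Cdc20, Cdc25b and Ccnb2 had differences of 0.29, 0.23 and 0.18, none of which passed.

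At 24 h the arrays were ordered by diet for most members. For 8 of the 9 members, all but Cdc25b, both ethanol-fed arrays lay below both pair-fed arrays, against 19% of tested genes. Of these 8, Wee1 was lower on both ethanol-fed arrays at 0 h as well, and Cdc20 had no order by diet at 0 h. None of the 9 passed the test, nor did any of the 8690 genes in limma, although 1003 had an unadjusted p under 0.05. The differences ran from -0.90 ± 0.12 for Cdkn3 (adjusted p = 0.0884) to -0.22 ± 0.27 for Cdc25b, with Ccnb1 at -0.85 ± 0.21, Ube2c at -0.78 ± 0.16 and Wee1 at -0.65 ± 0.24.

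The change with PHx was called smaller in ethanol-fed than in pair-fed livers for 5 of the 9 members. Over all tested genes 0.46% were called lower in this contrast. None of the 9 was called with a larger change, against 0.069% of tested genes. Of the 5, Ccna2, Ccnb1 and Cdk1 averaged 4.59, 4.68 and 4.50 at 0 h, under the minimum of 5. They were tested only because their 24 h levels brought the mean above it. With no minimum on the level the 5 had adjusted p-values in limma from 0.074 to 0.184. SEs here rest mostly on limma's variance prior over all tested genes. Ccnb1 rose by 2.72 and 1.99 in the ethanol-fed pools (AM21, then untreated), against 5.53 and 4.06 in the pair-fed pools, a difference of -2.44 ± 0.24 (adjusted p = 0.00971). For Cdkn3 the changes were 1.84 and 0.74 in ethanol-fed pools, against 4.08 and 2.96 in pair-fed pools (-2.23 ± 0.20, adjusted p = 0.00754). For Cdk1 they were 2.92 and 2.29, against 5.15 and 4.04 (-1.99 ± 0.21, adjusted p = 0.00971). In all 3 genes both ethanol-fed pools changed less than both pair-fed pools, as 7 of the 9 members did, against 19.7% of tested genes.

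Ccna2 changed by 2.72 and 1.34 in ethanol-fed pools, against 4.18 and 2.96 in pair-fed pools (-1.54 ± 0.20, adjusted p = 0.0182), and Ube2c by 2.43 and 1.99, against 4.13 and 3.17 (-1.44 ± 0.22, adjusted p = 0.0365). Cdc20 and Ccnb2 had the same direction without passing, at -0.88 ± 0.20 (adjusted p = 0.129) and -0.75 ± 0.25 (adjusted p = 0.31). The dimmer Ccnb2 probe set gave -1.82 ± 0.21 with an adjusted p of 0.011. That probe set was under 5 on every 0 h array and was tested only through its 24 h levels. Its pair-fed untreated 0 h value, 3.84, lay below that array's median of 4.23 and may be background. Wee1 was at 0.27 ± 0.20 and Cdc25b at -0.45 ± 0.26, and neither passed.

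The difference in the change is the 24 h diet difference minus the 0 h diet difference on the same arrays, so these 3 results are not independent of each other. For Ccnb1, Cdk1, Cdkn3 and Ccna2 the 0 h part was the larger one in size, and for Ube2c the 24 h part (-0.78, beside 0.66 at 0 h). Several of the pair-fed 0 h values that the larger folds rest on are under 5 and are not shown to be above background. The calls are fragile: with no minimum on the level 0 of the 9 members passed in the difference of the change (smallest adjusted p 0.074) and 0 at 0 h (smallest adjusted p 0.0779). Leaving out any array at 0 h also left 0 calls at 0 h. With the AM21-by-time term left out of the fit, 0 members passed in the difference of the change with all pools, and 0 with any pool left out too. In these settings the sign of the called differences stayed.

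**Figure D4:**
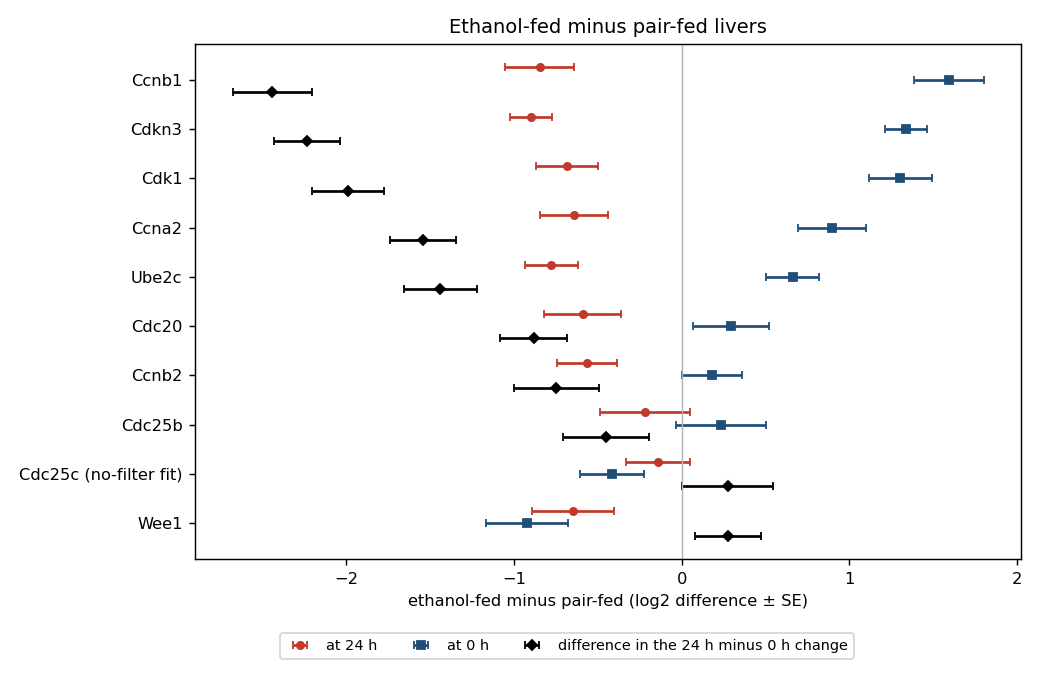
Ethanol-fed minus pair-fed difference (log2 ± SE) of each gene at 24 h (circles), at 0 h (squares) and in the change between the times (diamonds); Cdc25c is from the fit with no level minimum. For Ccnb1, Cdkn3 and Cdk1 the squares lie above 1 and the circles between -0.90 and -0.69.

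Of the wider pathway, Cdkn1a was called in the same diet comparisons and directions as Ccnb1, Cdk1 and Cdkn3. It was 8.47 and 8.40 at 24 h in ethanol-fed livers, against 9.15 and 8.47 in pair-fed livers, and 8.38 and 8.38 at 0 h in ethanol-fed livers, against 6.58 and 5.60 in pair-fed livers. At 0 h it was 2.29 ± 0.25 higher with ethanol (adjusted p = 0.0229), and its change differed by -2.66 ± 0.21 (adjusted p = 0.00522). Bub1 (-1.71 ± 0.25, adjusted p = 0.0327) and Ttk (-1.70 ± 0.20, adjusted p = 0.0116) were the 2 of 22 genes of the anaphase-promoting complex list with a smaller change in ethanol-fed pools. Of the proliferation markers, 4 of 8 had one: Rrm2 (-2.19 ± 0.28), Top2a (-1.96 ± 0.22), Cenpf (-1.76 ± 0.24) and Mki67 (-1.75 ± 0.22, adjusted p = 0.0158). The share called lower in this contrast over all tested genes was 0.46%. Bub1 and Ttk lay under 5 on every 0 h array and were tested only through their 24 h levels. Cenpf was above 5 at 0 h only on the ethanol-fed untreated array (5.17). With no minimum on the level, 0 of all genes passed in the difference of the change. At 0 h Rrm2 was called higher (1.82 ± 0.24, adjusted p = 0.0374). In the partner, transcription factor and G1 lists 0 genes passed in any diet comparison.

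The Kupffer cell and macrophage list and the sinusoidal endothelial list were higher on both ethanol-fed arrays at both times. The Kupffer list averaged 7.75 and 7.92 at 24 h in ethanol-fed livers, against 7.21 and 7.43 in pair-fed livers, and 7.87 and 7.90 at 0 h in ethanol-fed livers, against 7.48 and 7.38 in pair-fed livers. The endothelial list averaged 6.76 and 6.54 at 24 h in ethanol-fed livers, against 6.42 and 6.31 in pair-fed livers, and 7.05 and 6.93 at 0 h in ethanol-fed livers, against 6.72 and 6.64 in pair-fed livers. None of the 12 tested Kupffer and 6 tested endothelial genes passed in any diet comparison. The part of these cells in the diet differences of the switch genes was not tested.

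The third comparison asked what AM21 did to the switch. The mature rat miR-21 is shown here because AM21 is directed against it. The strand rno-miR-21-5p (RefSeq, GRCr8, chr10:71902653-71902674, minus strand) is given with its seed, bases 2 to 8, in capitals.
rno-miR-21-5p: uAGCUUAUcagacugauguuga

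The change with PHx was larger in AM21 than in untreated pools by the fitted value for all 9 members, and 0 of 9 passed (0% of the 8690 tested genes in limma, with 604 at an unadjusted p under 0.05). The median of the 9 was 0.86, beside -0.05 over all tested genes. In the ethanol-fed pools Ccnb2 went the other way, with 0.45 in the AM21 and 0.82 in the untreated pool. Most members ran together over the arrays, so the 9 are not separate results. The differences ran from 0.08 ± 0.25 for Ccnb2 to 1.30 ± 0.20 for Ccna2, whose adjusted p of 0.181 it shared with Wee1 (1.28 ± 0.20). Ccna2 changed by 2.72 in the ethanol-fed and 4.18 in the pair-fed AM21 pool, against 1.34 and 2.96 in the untreated pools. Wee1 changed by 2.11 and 1.80 in the AM21 pools, against 0.79 and 0.55 in the untreated pools. Only Wee1 and Cdc25b had both AM21 pools above both untreated pools, 2 of 9 members, against 11.4% of tested genes. With a mean-dependent and robust variance prior in limma, Ccna2, Wee1 and Cdkn3 passed (adjusted p = 0.0353, 0.0353 and 0.0447), among 26 of the 8690 tested genes. Ccna2 averaged 4.59 at 0 h and was tested only through its 24 h levels. With a pool and the diet-by-time term left out, the difference ran from -0.0129 to 2.23 for Cdkn3. It ran from 0.49 to 2.11 for Ccna2 and from 1.12 to 1.43 for Wee1.

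At 24 h AM21 livers were higher in the fitted value for all 9 members, by 0.03 (Cdc25b) to 0.85 (Cdkn3), and 0 of 9 passed, as 0% of all genes did (636 at an unadjusted p under 0.05). The median of the 9 was 0.48, beside -0.06 over all tested genes. Cdkn3 was 7.95 in ethanol-fed and 8.92 in pair-fed AM21 livers, against 7.17 and 8.001 in untreated livers (0.85 ± 0.12, adjusted p = 0.18). Within both diets 7 of 9 members were higher with AM21 at 24 h, against 18.8% of tested genes. The pair-fed AM21 array at 24 h was the highest of the 8 arrays for all 9 tested members and for Cdc25c, against 11.5% of tested genes. On the pair-fed arrays the AM21 minus untreated difference at 24 h ran from 0.44 (Ccnb2) to 1.17 (Ccnb1), and on the ethanol-fed arrays from -0.58 (Cdc25b) to 0.78 (Cdkn3). Whether AM21 acted differently in the 2 diets was not tested, and each of these differences is between single arrays.

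At 0 h, after 1 injection, 8 of 9 members were lower with AM21 in the fitted value and 0 of 9 passed (0% of all genes, 471 at an unadjusted p under 0.05). The median of the 9 was -0.37, beside -0.01 over all tested genes. Wee1 had the lowest value, -0.80 ± 0.24 (adjusted p = 0.849), and Ccnb2 the highest, 0.04 ± 0.18. The direction was shared by both diets for 7 members, against 27.4% of tested genes. In every list of the wider pathway 0 genes passed in the AM21 comparisons. The neutrophil and monocyte list averaged 5.11 and 4.87 at 24 h in ethanol-fed and pair-fed AM21 livers, against 5.62 and 5.56 in untreated livers. Its part in the AM21 values was not tested.

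**Figure D5:**
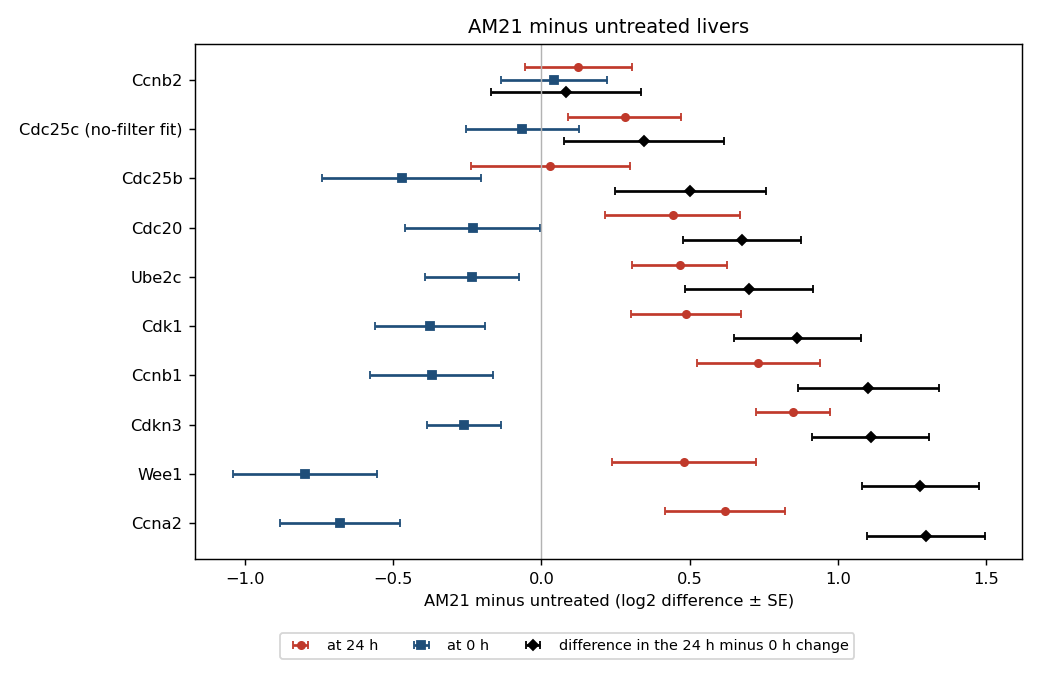
AM21 minus untreated difference (log2 ± SE) of each gene at 24 h (circles), at 0 h (squares) and in the change between the times (diamonds); Cdc25c is from the fit with no level minimum. The diamonds of the 9 tested genes lie between 0.08 and 1.30, and none passed the test.

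Across the 8 arrays Cdc25b was the least like member for each of the other 9, with correlations from 0.46 to 0.58. Every other member had its closest partner at 0.91 or above: Ccna2 and Ube2c with Cdk1 (0.992 and 0.994), Cdkn3 with Ccnb1 (0.989), Cdc20 and Ccnb2 with Ube2c (0.993 and 0.965), Cdc25c with Cdc20 (0.918) and Wee1 with Cdc25c (0.91). Among all other tested genes, the 5 most like the mean standardised level of the members, with correlations between 0.993 and 0.996 over 8 arrays, were Hmmr, Ppp2r2d, Hjurp, Ncapd2 and Chaf1b. Their changes with PHx were 2.63 ± 0.31, 0.70 ± 0.13, 2.10 ± 0.26, 1.71 ± 0.22 and 1.85 ± 0.22. These genes were picked for likeness over arrays of both times, so a rise with PHx was built into the choice. Hmmr, Hjurp and Chaf1b lay under 5 on every 0 h array and were tested only through their 24 h levels. Hmmr encodes a spindle-associated protein, Hjurp the chaperone of the centromeric histone, Ncapd2 a condensin subunit and Chaf1b a subunit of the chromatin assembly factor. Likeness was measured on arrays of both times and both diets, which all these correlations share.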

How the data were processed

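Liver RNA was measured on 8 arrays. The deposited values are log2 levels that the authors made with RMA and Affymetrix Expression Console (submitters' processing notes); their versions and the array's genome build were not given in the sources used here. RMA brings the arrays to close distributions, which hides any change common to most genes. Arrays give no read depth, and their number limits the precision.

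Of 36685 probe sets, 18511 had 1 gene symbol, 575 several and 17599 none; 18394 of the named were found in the RefSeq GRCr8 gene table. The 18511 probe sets with 1 symbol stand for 18166 genes, 291 of them with several probe sets, of which the brightest by mean was used. Fits used limma 3.58.1 in R 4.3.3 on the 8690 genes with a mean of at least 5, called at a Benjamini-Hochberg adjusted p under 0.05, and were tested on simulated data. The PHx response and its differences by diet and AM21 had the pool as a fixed block (3, 1 and 1 residual degrees of freedom); the pairing rests on the animal identifiers in the labels. Fits within a time took the 8 arrays as independent (2 residual degrees of freedom). With 1 array per group, p-values rest on the spread between pools and on limma's variance prior, which is shared by all tested genes. They also rest on assuming that factors left out of a fit do not interact. In the diet and AM21 differences in the PHx response the prior had 6.94 degrees of freedom, beside 1 residual degree of freedom. The SEs of these 2 contrasts therefore come mostly from the prior and do not measure how closely the pools of a gene agreed.

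The members and the 14 gene lists (181 names, 161 with a probe set, 119 tested) were chosen with earlier results of these data known. Genes named beside the members are up to 3 rises and 3 falls per list and comparison among those past the threshold, a fixed set of cell cycle regulators, and the 5 genes most like the members. Alternatives were other level minimums, probe set rules, scalings and variance priors, no block, and leaving out each pool or array.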

Additional observations from a re-analysis of the deposited data

Results flagged for a closer look

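Of 30 groups of 4 values among the members (24 h levels, 0 h levels and pool changes), 3 held a value that stood apart from the other 3 by Dixon's criterion; chance gives about 5% of such groups. The Cdc25b change with PHx was 0.95 in the pair-fed AM21 pool, apart from the other pools. The Cdc25c change was 0.48 in the pair-fed untreated pool, below the other pools. The Cdc20 level at 0 h was 5.58 in the ethanol-fed untreated pool, above the other pools. The change with PHx differed between the diets by the test of the difference itself for Ccnb1 (-2.44), Cdkn3 (-2.23), Cdk1 (-1.99), Ccna2 (-1.54) and Ube2c (-1.44), ethanol-fed minus pair-fed on the log2 scale, with adjusted p-values from limma between 0.00754 and 0.0365 and both ethanol-fed pools below both pair-fed pools in each gene.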

How the results depend on the processing

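For the PHx response 7 to 8 of 9 were called when a pool was left out, 8 with no replicate block, and no sign changed in any setting run. The diet difference in the PHx response went from 5 called members to 0 with no level minimum, 3 at a minimum of 6, 3 after quantile normalization, 1 with no replicate block (Cdkn3), and 0 with the AM21-by-time term left out. Leaving out a pool was fitted without that term too, so both choices changed at once, and gave 0 to 0. Diet at 0 h went from 3 to 0 with no level minimum, 1 after quantile normalization and 0 to 0 with an array left out. With a mean-dependent, robust variance prior the AM21 difference in the PHx response went from 0 to 3 members and diet at 24 h from 0 to 1 (Cdkn3, adjusted p = 0.0342). Counts over all genes moved too: 46 for the diet difference, against 0 to 179 in other settings, 75 at 0 h, against 3 to 190, 0 at 24 h, against up to 42, 0 for the AM21 difference, against up to 26, and 0 for AM21 at 24 h, against up to 4. The PHx response had 2443, against 1466 with the ethanol-fed AM21 pool left out. The cause was not tested.

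Signs turned only when a pool or array was left out, and only in differences that had not passed. Over these settings the diet difference in the PHx response ran from -0.38 to 0.93 for Wee1 and from -0.93 to 0.0292 for Cdc25b. The AM21 difference ran from -0.30 to 2.51 for Ccnb1, -0.52 to 0.68 for Ccnb2, -0.25 to 1.98 for Cdk1, -0.0129 to 2.23 for Cdkn3 and -0.15 to 1.55 for Ube2c. Diet at 0 h ran from -0.0198 to 0.60 for Cdc20, and diet at 24 h from -0.83 to 0.39 for Cdc25b. AM21 at 0 h ran from -0.0902 to 0.17 for Ccnb2 and -0.54 to 0.0794 for Cdc20, and AM21 at 24 h from -0.19 to 0.44 for Ccnb2 and -0.58 to 0.64 for Cdc25b. The dimmer Ccnb2 probe set, chosen after seeing the data, gave the same signs in all 7 comparisons. A random replicate block for the fits within a time was not run, since a within-pool correlation could be estimated for 0 genes.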

Other observations

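Mybl2, a partner of the MuvB complex in the activation of mitotic genes, had a mean level under 5 and was not tested. It stood at 4.96, 4.93, 5.82 and 5.03 at 24 h in the ethanol-fed AM21, ethanol-fed untreated, pair-fed AM21 and pair-fed untreated pools, against 4.20, 3.68, 3.97 and 3.97 at 0 h. Its times did not overlap, and its highest array was the pair-fed AM21 array at 24 h, as for the switch genes.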
